A study of Mus musculus with 30 samples.

Results

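The 10 transcripts described here encode the kinase mTOR, the proteins that assemble it into mTOR complex 1 (mTORC1) and mTOR complex 2 (mTORC2), and the proteins that switch mTORC1 on and off. They were chosen by gene symbol, as Mtor, Rptor, Rictor, Mlst8, Akt1s1, Deptor, Rheb, Tsc1, Tsc2 and Rps6kb1, and all 10 were present among the 23993 symbols of the table. The values came from RNA-seq of tdTomato-tagged cells sorted by FACS from the medial prefrontal cortex (mPFC) of mice, in FPKM (fragments scaled by transcript length and by library size). All mice carried the Cre-dependent Ai9 tdTomato reporter, with Cre driven from the Sst or the Pvalb gene, with the strain labelled C57BL/6 and an age of 6 to 12 weeks according to the Methods. The groups were unstressed Sst females (7 libraries), unstressed Sst males (7 libraries), Sst males after 14 days of chronic unpredictable stress (CUS, 3 libraries) and unstressed Pvalb mice labelled male (7 libraries). The labels place 6 other libraries in a group (1 unstressed Pvalb female, 3 Sst females after CUS and 2 Pvalb females after CUS), which were not analysed here.

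mTOR is a protein kinase that couples nutrients, growth factors and energy to protein synthesis and autophagy. Raptor (Rptor) defines mTORC1, which phosphorylates the S6 kinases and the eIF4E-binding proteins, and Rictor defines mTORC2, which phosphorylates AKT. Growth factor signals reach mTORC1 when the TSC complex (Tsc1 and Tsc2) is inhibited and the small GTPase Rheb, which it holds in the inactive form, becomes active. Fast antidepressant action of ketamine and synaptic protein synthesis in the prefrontal cortex have been tied to mTORC1, and loss of TSC1 or TSC2 causes tuberous sclerosis.

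Several facts of the libraries bear on every value below. The libraries SST0-M and SST1-M held nearly the same values, and so did PV0-M and PV2-M (SD of the log2 ratio over genes 0.0212 and 0.0170, against 0.267 and 0.225 for the next closest pair of the group), so each pair was averaged and counted as 1 sample, which left 22 samples. The titles of the Sst male libraries were of 2 kinds. All 3 CUS samples and 3 of the 6 unstressed samples had date-like titles (here "dated"), and the other 3 unstressed samples had a running number ("numbered"), as had the Sst females (1 of them with no number) and the Pvalb samples. Small nucleolar and Cajal body RNAs took 53.5% to 75.7% of the summed FPKM in the dated libraries and 1.87% to 8.29% in the others, so the kind of title was also compared. Although the gate was for interneurons, 10 interneuron markers summed to 4.29 to 70.1 FPKM per sample (Dlx2 was listed at 0 in all Pvalb samples), whereas 12 microglia markers summed to 2630 to 9473 FPKM. Sst itself went against the labels, at 12.5 to 30.5 FPKM (median 24.9) in the samples labelled Pvalb, above its median in every group labelled Sst (4.18 to 49.3 FPKM with a median of 10.1 in the females, 0.238 to 6.02 in the numbered males, a listed 0 to 2.89 in the dated unstressed males and 1.71 to 5.54 after CUS). Pvalb was at 0.890 to 5.07 FPKM in the samples labelled Pvalb and at a listed 0 to 1.93 FPKM in those labelled Sst. Sst and Pvalb below name the labelled line, not a cell type seen in the transcripts. Xist, which is expressed from the inactive X chromosome of females, was at 300.2 FPKM or more in 3 of the 7 Pvalb libraries labelled male (PV1-M, PV4-M and PV5-M). In bulk samples, fewer cells of a type and less RNA per cell cannot be told apart. The labels do not say whether samples came from separate mice, so p-values measure the spread between these samples. The 4 comparisons share samples, and the numbered males entered all of them. The Methods give a range of reads per sample, but not the depth of each library. The steps of the lowest values gave depths of roughly 0.463 to 2.51 times that of SST2-F, a wider span than that range. This estimate is rough, as 11.8% to 33.4% of the genes used lay at the step.

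The promoter letters of the kinase, of the subunit that defines mTORC1 and of its direct activator are shown, since these 3 form the core of the pathway and their reference windows began at the gene's annotated start. Each is the 100 bases before the start on the gene's own strand (RefSeq, GRCm38.p6), with capitals for matches on either strand of the letters CCAAT, of the GC box GGGCGG, and of the E-box CACGTG.
Mtor (chr4:148448482-148448581, plus strand): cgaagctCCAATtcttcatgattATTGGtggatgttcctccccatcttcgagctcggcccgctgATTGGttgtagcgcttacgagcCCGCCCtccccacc
Rptor (chr11:119602805-119602904, plus strand): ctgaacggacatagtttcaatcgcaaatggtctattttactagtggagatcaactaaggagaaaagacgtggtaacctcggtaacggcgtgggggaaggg
Rheb (chr5:24842362-24842461, minus strand): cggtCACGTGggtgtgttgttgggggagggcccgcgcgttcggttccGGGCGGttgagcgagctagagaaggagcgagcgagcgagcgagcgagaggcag
The Mtor window held 3 CCAAT matches and 1 GGGCGG match, the Rheb window held 1 GGGCGG and 1 CACGTG match, and the Rptor window held none of these letters. Over 250 bases, 9 of the 10 members had a promoter entry, and CCAAT was found in 2 of them (Mtor and Rictor), against 33.8% of 32851 promoters. GGGCGG was found in 4 (Mtor, Rictor, Akt1s1 and Rheb), against 32.7%, and CACGTG in Rheb alone, against 6.02%. TATAAA was in none of the 9, against 12.4%.

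All 10 members were expressed above the 0.4 FPKM filter, and their levels spanned nearly an order of magnitude. By mean FPKM over the 22 samples, Rptor was highest (21.2 ± 7.38, SD), followed by Rps6kb1 (16.8 ± 3.70), which encodes S6 kinase 1, Tsc2 (16.6 ± 2.63), Rheb (16.0 ± 5.50) and Mtor (15.2 ± 4.25). Rictor (11.2 ± 1.63) and Tsc1 (8.60 ± 1.96) came next. Akt1s1, which encodes the mTORC1 inhibitor PRAS40, had a median of 4.33 FPKM, and the lowest means were those of Mlst8 (3.81 ± 1.52), a subunit of both complexes, and Deptor (2.65 ± 0.620), an inhibitor of both. The order among the upper 5 was not stable, as Rptor exceeded Rps6kb1 in 14 of 22 samples, Rps6kb1 exceeded Tsc2 in 10, Tsc2 exceeded Rheb in 14 and Rheb exceeded Mtor in 12. Mtor was above Rictor, and Rictor above Tsc1, in 20 of 22 samples each. Levels are per length, which allows a rough comparison between genes. The loci of most members overlap another annotated gene, and whether this affected the order was not tested.

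**Figure D1:**
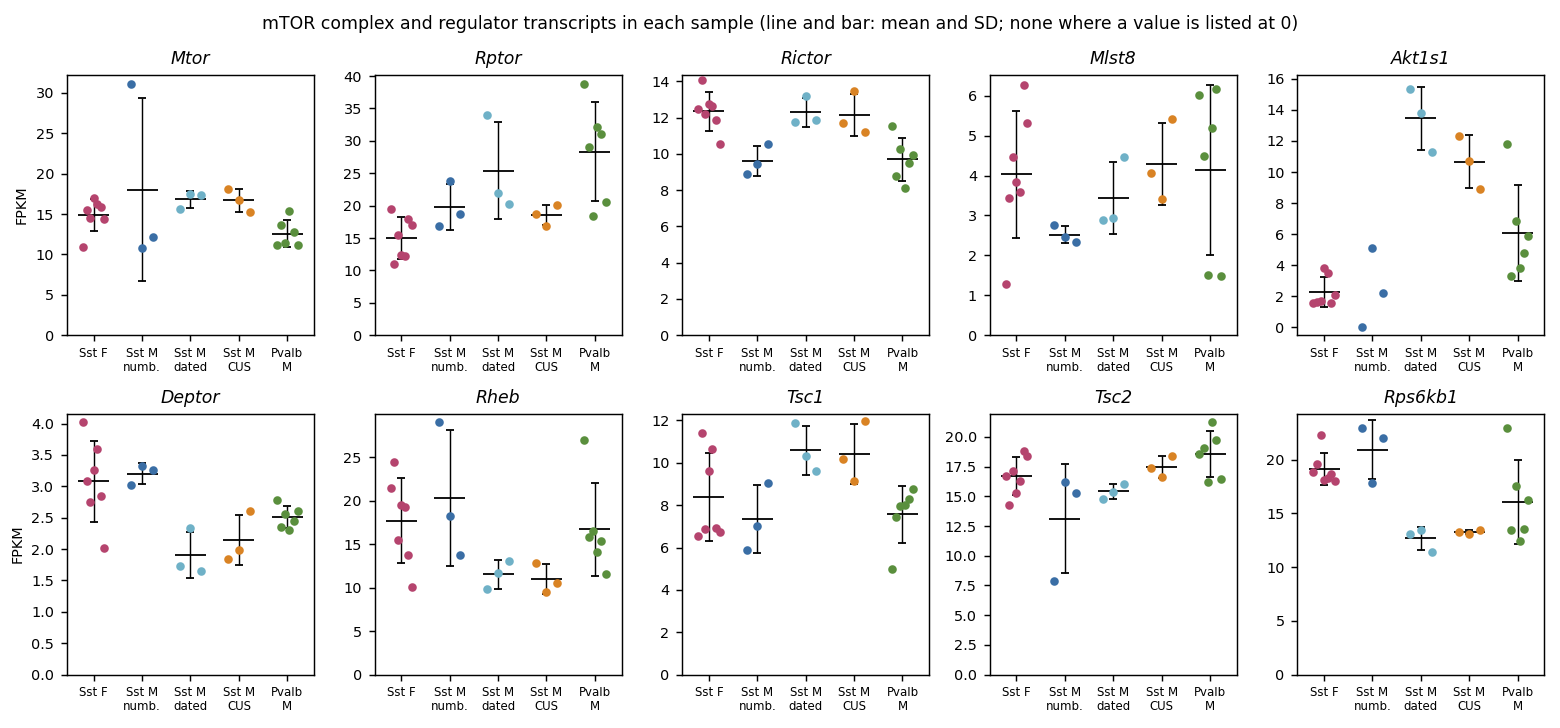
FPKM (vertical axes, linear) of each member in the 22 samples, by group (horizontal axes: unstressed Sst females, numbered and dated unstressed Sst males, Sst males after CUS, and unstressed Pvalb samples labelled male). Points are samples, and lines with bars are group means and SD, left out for Akt1s1 where a value is listed at 0. Akt1s1 ranged from 8.91 to 15.3 in the dated samples and from 0 to 5.14 in the numbered Sst samples.

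For 9 of the 10 members, all but Akt1s1, the spread between samples was below the median spread of all genes. The SD of log2(FPKM + 1) over the 22 samples had a median of 0.31 over the 10 members (0.20 to 1.05), beside a median of 0.56 over 14566 expressed genes. Rictor had the steadiest level, from 8.13 to 14.1 FPKM, and Akt1s1 the most variable one.

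The first comparison addressed sex in unstressed samples labelled Sst, with 7 females against the 3 numbered males. None of the 10 members passed (limma on log2(FPKM + 1), adjusted p below 0.05), whereas 3.41% of all 14443 genes tested did. At an unadjusted p below 0.05 the count was also 0, beside 24.3% of all genes. The members' estimates lay on both sides of 0 (5 higher and 5 lower in females), with a median log2 fold change of 0.05, the same as that of all genes (0.05).

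Rictor, the scaffold of mTORC2, came nearest to a difference between the sexes. Its level was 10.5, 11.8, 12.2, 12.5, 12.6, 12.7 and 14.1 FPKM in the females and 8.88, 9.43 and 10.5 FPKM in the numbered males. Every female value was above every male value, although the lowest female (10.529 FPKM) and the highest male (10.527 FPKM) were nearly level, and groups did not overlap for 9.73% of all genes. The log2 fold change was 0.33 (SE 0.15, adjusted p = 0.212 by limma), and the exact permutation test gave p = 0.0167, unadjusted, where 15.7% of all genes were below 0.05. Against the 3 dated males, at 11.8, 11.9 and 13.2 FPKM, the log2 fold change of Rictor was 0.0049 (adjusted p = 0.979 by limma).

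Rptor leaned the other way. Its level was 11.1, 12.2, 12.4, 15.4, 17.1, 17.9 and 19.5 FPKM in the females and 16.8, 18.7 and 23.8 FPKM in the numbered males, so that 4 of the 7 females lay below every male. The log2 fold change was -0.38 (SE 0.21, adjusted p = 0.276 by limma).

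Among the other subunits, Mlst8 had a log2 fold change of 0.44 (adjusted p = 0.410 by limma), with 6 of 7 females above all 3 numbered males and the 7th below them. Akt1s1 (0.23, adjusted p = 0.785) and Deptor (-0.06, adjusted p = 0.891) differed by less than the spread between samples. For Mtor itself, the log2 fold change was -0.11 (adjusted p = 0.825 by limma). The averaged sample SST0-M with SST1-M held 31.1 FPKM of Mtor, 7.84 of Tsc2 and a listed 0 of Akt1s1, and without it the estimates became 0.34 for Mtor, -0.49 for Akt1s1 and 0.10 for Rheb, each on the other side of 0, with none past the threshold.

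The regulators upstream of mTORC1 and its target S6 kinase 1 did not pass either. Tsc2 had a log2 fold change of 0.38 (adjusted p = 0.285 by limma) and 0.07 without the averaged sample SST0-M with SST1-M. Tsc1 (0.16, adjusted p = 0.689), Rheb (-0.17, adjusted p = 0.726) and Rps6kb1 (-0.12, adjusted p = 0.635) were within the spread. The 95% confidence intervals still allowed differences of some size, such as -0.83 to 0.07 for Rptor and -0.08 to 0.84 for Tsc2 on the log2 scale. Microglia markers summed to 3534 to 6391 FPKM in the females and 5677 to 9331 FPKM in the numbered males, and their part in the values was not tested.

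**Figure D2:**
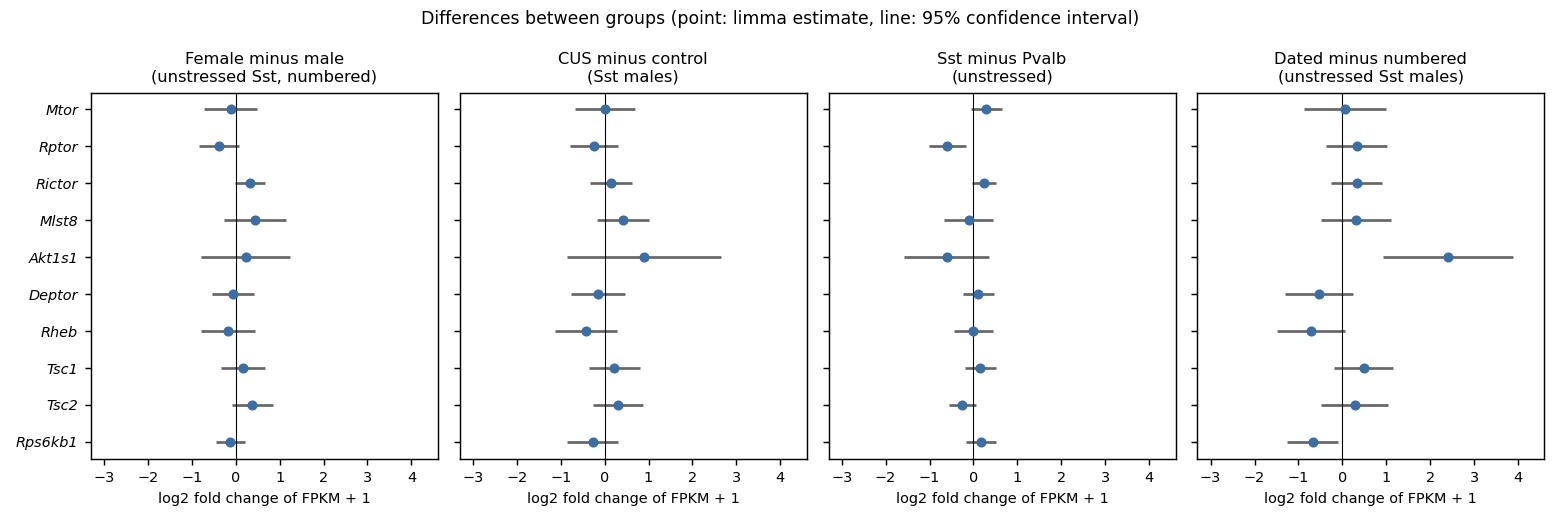
log2 fold change of FPKM + 1 (horizontal axes) for each member (rows) in the 4 comparisons, as limma estimates (points) with 95% confidence intervals (lines). None of the 40 estimates passed an adjusted p of 0.05. The widest interval is that of Akt1s1 in each of the panels.

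The outcome for sex depended on which males were taken. Against the 3 dated males, 3 of 10 members passed, beside 41.5% of all genes. Akt1s1 was then lower in females (log2 fold change -2.18, adjusted p = 4.26e-05 by limma), as was Rptor (-0.71, adjusted p = 0.0177), and Rps6kb1 was higher (0.56, adjusted p = 0.00278). In that contrast all the males had dated titles and none of the females had, so sex and the kind of title cannot be told apart. Against all 6 males, 0 of 10 passed, beside 11.7% of all genes.

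The second comparison set dated against numbered samples among unstressed Sst males, with sex, line and stress the same by their labels (3 against 3). The groups did not overlap for 7 of the 10 members, beside 33.5% of all 14230 genes, yet none passed limma's adjusted threshold, which 4.11% of all genes did. At an unadjusted p below 0.05 the count was 2 (Akt1s1 and Rps6kb1), beside 23.6% of all genes. The exact permutation test cannot go below p = 0.1 with 3 against 3.

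Akt1s1 showed the widest difference. Its level was 11.3, 13.8 and 15.3 FPKM in the dated samples, and 5.14 and 2.22 FPKM in 2 of the numbered samples, while it was listed at 0 in the averaged one. A listed 0 can be a failed estimate, as 79 genes listed at 0 in SST0-M and SST1-M were above 1 FPKM in every other library. The log2 fold change was 2.41 (SE 0.64, unadjusted p = 0.00587, adjusted p = 0.0780 by limma). Without the averaged sample, the log2 fold change was 1.69 and passed (adjusted p = 0.0229 by limma). Over all genes 1962 of 14275 then passed, beside 585 of 14230 with that sample. The 3 CUS samples, also dated, held 8.91, 10.7 and 12.3 FPKM, whereas the 7 females held 1.59 to 3.80 FPKM. The kind of title is mixed with CUS and sex across these groups.

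S6 kinase 1 and Rheb were lower in the dated samples. Rps6kb1 was at 11.4, 13.1 and 13.5 FPKM in the dated and 17.8, 22.0 and 22.9 FPKM in the numbered males (log2 fold change -0.68, SE 0.25, unadjusted p = 0.0273, adjusted p = 0.158 by limma). Over all Sst samples its levels were 11.4 to 13.5 FPKM in the 6 dated and 17.8 to 22.9 FPKM in the 10 numbered ones. This split also mixes in sex and CUS, and the share of all genes with such a gap was not counted. Rheb was at 9.78, 11.7 and 13.0 FPKM against 13.8, 18.2 and 29.0 FPKM (-0.71, adjusted p = 0.238 by limma).

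Deptor was also lower (1.66, 1.74 and 2.33 against 3.02, 3.26 and 3.32 FPKM, log2 fold change -0.54, adjusted p = 0.366 by limma). Tsc1, at 9.61, 10.3 and 11.9 against 5.89, 7.04 and 9.06 FPKM, lay higher (0.49, adjusted p = 0.341), as did Rictor (0.33, adjusted p = 0.466) and Mlst8 (0.32, adjusted p = 0.611). Mtor (0.06, adjusted p = 0.943), Rptor (0.32, adjusted p = 0.533) and Tsc2 (0.28, adjusted p = 0.636) overlapped between the kinds of title. Alongside these members, microglia markers summed to 3288 to 7209 FPKM in the dated and 5677 to 9331 FPKM in the numbered samples, and their part in the values was not tested.

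The third comparison addressed CUS in Sst males, with 3 CUS samples against all 6 unstressed ones. The titles of all 3 CUS samples and of 1 dated control begin with SS04031, and those of the other 2 dated controls do not, so CUS was partly mixed with this part of the title. None of the 10 members passed, and 0.00698% of all 14319 genes did (1 gene). At an unadjusted p below 0.05 the count was 0 of 10, beside 7.47% of all genes.

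Tsc2, the catalytic part of the complex that restrains Rheb, was the member that stood apart after CUS. Its level was 16.6, 17.4 and 18.4 FPKM after CUS, against 14.8, 15.4 and 16.1 FPKM in the dated and 7.84, 15.3 and 16.2 FPKM in the numbered controls. All 3 CUS samples were above all 6 controls, and groups did not overlap, in either direction, for 7.1% of all genes. The log2 fold change was 0.31 (SE 0.26, 95% confidence interval -0.27 to 0.88), and limma gave adjusted p = 0.680. The exact permutation test gave p = 0.0238, the smallest that 3 against 6 can give, unadjusted over the 10 members, where 11.5% of all genes were below 0.05. Without the averaged control sample SST0-M with SST1-M the log2 fold change was 0.16. Against the dated controls alone the groups still did not overlap, with a log2 fold change of 0.17 (adjusted p = 0.666 by limma).

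Rptor was at 16.9, 18.8 and 20.0 FPKM after CUS, against 20.3, 21.9 and 34.0 FPKM in the dated controls (34.0 in SS04031R) and 16.8, 18.7 and 23.8 FPKM in the numbered ones. The CUS samples lay below every dated control but among the numbered controls, and the log2 fold change was -0.24 against all 6 (adjusted p = 0.729 by limma) and -0.40 against the dated ones (adjusted p = 0.647). Rptor and Tsc2 were the 2 of 10 members that did not overlap between CUS and dated controls, beside 18.7% of all genes.

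Mtor was at 15.2, 16.8 and 18.1 FPKM after CUS and 15.6, 17.4 and 17.5 FPKM in the dated controls, and the log2 fold change against all 6 controls was 0.02 (SE 0.31, adjusted p = 0.985 by limma). Within the dated samples, the interval for Mtor ran from -0.32 to 0.29 on the log2 scale.

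The estimates of the remaining members changed with the controls taken. Against all controls, Akt1s1 had a log2 fold change of 0.89, Rheb of -0.42, Rps6kb1 of -0.28, Tsc1 of 0.22, Rictor of 0.14 and Deptor of -0.16, and against the dated controls alone these became -0.31, -0.07, 0.06, -0.02, -0.02 and 0.11. Only Rheb kept its sign among these 6, and none passed in either, beside 0.00705% of all genes against the dated controls. Rps6kb1 spanned 13.0 to 13.4 FPKM after CUS, inside the 11.4 to 13.5 FPKM of the dated controls. Mlst8 kept a positive estimate (0.42 and 0.26, adjusted p = 0.644 and 0.705 by limma), with 3.41, 4.05 and 5.41 FPKM after CUS and overlapping values in the controls. Against the numbered controls alone, the groups did not overlap for 8 of 10 members, beside 44.7% of all genes, and 0 of 10 passed by limma, beside 16.1%. CUS and the kind of title cannot be told apart there.

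Microglia markers summed to 2630 to 3054 FPKM after CUS, below the 3288 to 9331 FPKM of the 6 controls, and oligodendrocyte markers summed to 1600 to 1967 FPKM, above the 391 to 1422 FPKM of the controls. Endothelial markers (5) summed to 117 to 188 FPKM after CUS and 17.9 to 102 FPKM in the controls. Their part in the values of Tsc2 and the other members was not tested.

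The fourth comparison addressed the Cre line, with 13 unstressed Sst samples (7 female and 6 male) against 6 unstressed Pvalb samples labelled male. None of the 10 members passed, beside 7.8% of all 14524 genes, and 1 (Rptor) was at an unadjusted p below 0.05, beside 25.1% of all genes. No member had groups without overlap, as 0.833% of all genes had. By the labels, 7 of the 13 Sst samples were female and no Pvalb sample was, so sex and line were partly mixed. Xist was above 100 FPKM in 3 of the 7 Pvalb libraries labelled male and in 0 of the 10 Sst libraries labelled male. The choices with Sst males alone were therefore not matched in sex by Xist. Sst itself was higher in the samples labelled Pvalb (median 24.9 FPKM) than in the groups labelled Sst, so the direction of the contrast is that of the labels.

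Rptor was higher in Pvalb than in Sst samples by the estimate. Its level in the Pvalb samples was 18.4, 20.5, 29.0, 31.0, 32.1 and 38.8 FPKM. The 13 Sst samples ran from 11.1 to 34.0 FPKM with a median of 17.9 FPKM, and 7 of them lay below every Pvalb sample. The log2 fold change (Sst minus Pvalb) was -0.60 (SE 0.20, 95% confidence interval -1.02 to -0.17, unadjusted p = 0.00784, adjusted p = 0.0724 by limma). The highest Sst value, 34.0 FPKM, was that of the dated sample SS04031R, and without it the log2 fold change was -0.67 and passed (adjusted p = 0.0251 by limma). Over all genes 1468 of 14522 then passed, beside 1133 of 14524 with that sample. With the 10 numbered Sst samples alone the log2 fold change of Rptor was -0.73 (adjusted p = 0.0186 by limma), and with the 7 females alone -0.85 (adjusted p = 0.00454). With the 6 Sst males alone it was -0.30 (adjusted p = 0.432 by limma), and with the 3 numbered males -0.47 (adjusted p = 0.416). The count of members that passed was 2 with the numbered samples, 3 with the females, and 0 with the males or the numbered males, beside 10.2%, 25.1%, 3.41% and 0.0912% of all genes.

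Within the Pvalb samples Rptor had a wide range that went with the libraries themselves. The 3 libraries with Xist held 29.0 to 32.1 FPKM, PV3-M and PV6-M held 18.4 and 20.5 FPKM, and the averaged PV0-M with PV2-M held 38.8 FPKM. Without the 3 libraries with Xist, the log2 fold change of Rptor was -0.44 (adjusted p = 0.556 by limma). Microglia markers summed to 7617 to 9473 FPKM in the Pvalb and 3288 to 9331 FPKM in the unstressed Sst samples, and with the mean of these markers as a covariate the log2 fold change of Rptor was -0.53 (adjusted p = 0.753 by limma), with 2 genes of the whole table passing. Markers of excitatory neurons (5) summed to 25.4 to 529 FPKM in the Pvalb and 25.2 to 237 FPKM in the unstressed Sst samples, and their part in the values was not tested.

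Akt1s1 was at 3.34, 3.84, 4.81, 5.87, 6.82 and 11.8 FPKM in the Pvalb samples. The numbered Sst samples ran from a listed 0 to 5.14 FPKM and the dated ones from 11.3 to 15.3 FPKM, so the Sst values lay on both sides of the Pvalb values. The log2 fold change was -0.61 over all 13 Sst samples (SE 0.46, adjusted p = 0.435 by limma), -1.13 over the numbered ones (adjusted p = 0.0357) and -1.06 over the females (adjusted p = 0.00863). It was -0.086 over the males (adjusted p = 0.948 by limma) and -1.29 over the numbered males (adjusted p = 0.328).

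**Figure D3:**
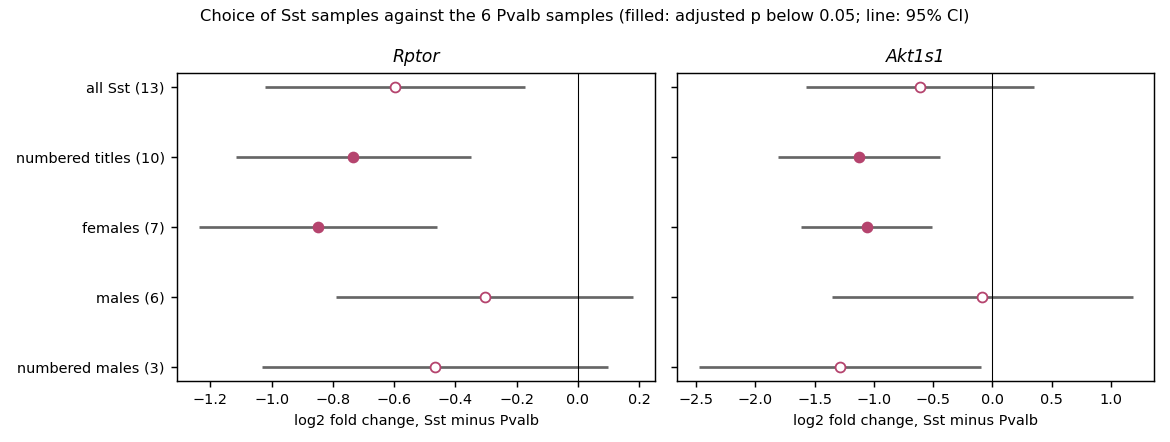
log2 fold change of FPKM + 1, Sst minus Pvalb (horizontal axes), for Rptor and Akt1s1 with each choice of Sst samples (rows, number of samples in brackets) against the 6 Pvalb samples. Points are limma estimates, filled where the adjusted p was below 0.05, and lines are 95% confidence intervals. Rptor ran from -0.85 with the females to -0.30 with the males.

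Rictor, Mtor and Tsc2 differed from the Pvalb samples by smaller amounts. Rictor was at 8.13 to 11.5 FPKM (median 9.72) in the Pvalb and 8.88 to 14.1 FPKM (median 11.9) in the Sst samples, with 9 of 13 Sst samples above every Pvalb sample (log2 fold change 0.25, SE 0.13, adjusted p = 0.243 by limma). With the females alone Rictor passed (0.32, adjusted p = 0.0464 by limma), and with the 3 numbered males the estimate was -0.0073. Mtor was at 11.2 to 15.3 FPKM (median 12.1) in the Pvalb and 10.8 to 31.1 FPKM (median 15.6) in the Sst samples (0.29, adjusted p = 0.299 by limma). Tsc2 was at 16.2 to 21.3 FPKM (median 18.8) in the Pvalb and 7.84 to 18.8 FPKM (median 16.1) in the Sst samples (-0.26, adjusted p = 0.294 by limma). The exact permutation test, unadjusted over the members, gave p = 0.0111 for Rptor, 0.0131 for Rictor, 0.00870 for Tsc2 and 0.0461 for Mtor, that is 4 of 10 below 0.05 beside 25.9% of all genes.

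The other members overlapped widely between the lines. The log2 fold changes were 0.17 for Rps6kb1, 0.16 for Tsc1, 0.11 for Deptor, -0.11 for Mlst8 and -0.0082 for Rheb, with adjusted p between 0.559 and 0.988 by limma. Among Pvalb samples, Mlst8 was at 1.49 and 1.52 FPKM in PV6-M and PV3-M and at 4.50 to 6.18 FPKM in the other 4.

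The ratio of Rptor to Rictor, chosen after the values had been seen and given with no test, placed the subunit that defines mTORC1 against the one that defines mTORC2 within each sample. It was 0.786, 0.964, 0.977, 1.26, 1.51, 1.56 and 1.62 in the Sst females, 1.78, 1.90 and 2.52 in the numbered males, and 1.66, 1.71 and 2.89 in the dated unstressed males. It was 1.26, 1.60 and 1.79 after CUS, and 1.79, 2.06, 3.27, 3.29, 3.36 and 3.95 in the Pvalb samples. All 7 female values lay below those of all 6 unstressed Sst males, by a slight margin (highest female 1.62, lowest male 1.66). The Pvalb median of 3.28 was above the highest Sst value of 2.89. The share of other gene pairs whose ratio separates these groups was not counted.

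**Figure D4:**
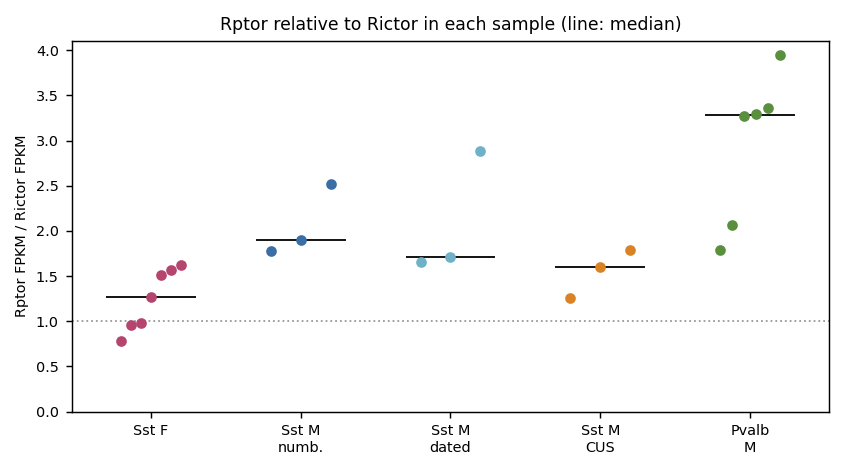
Rptor FPKM divided by Rictor FPKM (vertical axis, from 0) in each of the 22 samples by group, with points for samples, a line for the group median and a dotted line at a ratio of 1. The females reach 1.62 at most, and 4 of the 6 Pvalb samples lie between 3.27 and 3.95.

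Levels of some members followed each other across samples. Pearson's r over the 22 samples, which share groups and kinds of title and are therefore described with no p, was 0.71 between Deptor and Rps6kb1, 0.67 between Deptor and Rheb and 0.65 between Rheb and Rps6kb1. These were the highest values among all pairs of members, and r over all pairs of genes was not computed for comparison. Deptor, Rps6kb1 and Rheb were the members that lay lower in the dated samples. Akt1s1 ran against Rps6kb1 (r = -0.64) and Deptor (-0.59), and Rptor against Rictor (-0.52). Mtor and Tsc2 had r = -0.64, which became -0.11 without the averaged sample SST0-M with SST1-M. The genes whose level was most like that of Mtor among 14565 were Chst10 (r = 0.91) and Rnpc3 (0.90). Without that averaged sample their r was 0.82 and 0.79, at ranks 59 and 107, and the leading genes were Glyctk (0.91), Baz2a (0.90) and Sorl1 (0.90).

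Of 60 other genes of the pathway, 4 passed in the comparison of line, 3 of them higher in Sst and 1 lower, again beside 7.8% of all genes. Lamtor2, a Ragulator subunit that anchors Rag GTPases at the lysosome, was at 24.4 to 62.1 FPKM in the Sst and 8.88 to 26.1 FPKM in the Pvalb samples (log2 fold change 1.02, adjusted p = 0.00984 by limma). Ulk1, the autophagy kinase that mTORC1 inhibits, was lower in Sst, with means of 14.7 and 27.1 FPKM (-0.85, adjusted p = 0.0118 by limma). Nprl3, a GATOR1 subunit that restrains Rag signalling, had means of 7.01 and 3.57 FPKM (0.88, adjusted p = 0.0150 by limma). Mios, a GATOR2 subunit named after its values were seen because it was the remaining one, had means of 5.81 and 3.04 FPKM (0.79, adjusted p = 0.0320 by limma). All 4 also passed with the numbered Sst samples alone, and none with the Sst males alone.

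For sex, 1 of the 60 passed, beside 3.41% of all genes. Rragb, a Rag GTPase, was at 3.52 to 8.83 FPKM in the females and 0.548, 2.40 and 3.02 FPKM in the numbered males (log2 fold change 1.43, adjusted p = 0.0417 by limma). Against the dated males, at 4.12 to 7.86 FPKM, its log2 fold change was 0.07 (adjusted p = 0.848 by limma).

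For CUS, 0 of the 60 passed by limma, beside 0.00698% of all genes, and 3 were at an unadjusted p below 0.05, beside 7.47%. For the kind of title, 2 of the 60 passed, beside 4.11% of all genes. Eif4ebp2, an eIF4E-binding protein that mTORC1 phosphorylates, was at 11.3, 12.6 and 14.5 FPKM in the dated and 43.7, 49.7 and 100.1 FPKM in the numbered males (log2 fold change -2.16, adjusted p = 0.0249 by limma). Akt1, a kinase upstream of the TSC complex and a target of mTORC2, was at 40.7, 43.6 and 58.1 against 8.50, 15.4 and 18.5 FPKM (1.73, adjusted p = 0.0385 by limma). The 3 CUS samples held 9.20 to 11.7 FPKM of Eif4ebp2 and 37.6 to 41.3 FPKM of Akt1, near the dated controls, with log2 fold changes against them of -0.22 and -0.25 (adjusted p = 0.667 and 0.661 by limma).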

How the data were processed

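The authors deposited 1 table of FPKM for 23993 gene symbols in 24 libraries, made from sorted cells with a ribosomal RNA depletion kit. The Methods name alignment to mm9 with TopHat2 and then to mm10 with HISAT2, quantification with StringTie, removal of samples far from their group mean and ComBat, and the submitters' processing notes name TopHat2, Cufflinks, Cuffdiff and mm10. Whether ComBat was applied to the deposited FPKM is not stated. The upper quartile was 9.50 to 10.7 FPKM in all libraries, while the sums ran from 276023 to 1311420 FPKM.

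Members and lists were chosen with earlier results of these data known. A pair of libraries was averaged where the SD of its log2 ratio (genes above 5 FPKM) fell below 10% of the value for the next pair. Values were log2(FPKM + 1), which understates changes of low genes. Every gene whose mean exceeded 0.4 FPKM in the samples of a comparison entered limma 3.58.1 (R 4.3.3, trend and robust, two-sided), with p-values adjusted by Benjamini-Hochberg over all genes entered and a threshold of 0.05. Two-sided exact permutation tests of single members used scipy 1.17.1. Named were all members, the 3 other pathway genes with the smallest adjusted p among those that passed in each comparison, and the 3 genes most correlated with Mtor, of which 1 is not reported here. Cell type markers and the 60 other pathway genes were listed by hand. Without counts, no counting intervals were given. The limma step was checked on simulated data with known changes. It missed most of the smallest changes for sex, CUS and the kind of title. For the kind of title it also missed most of the next larger ones. A member that did not pass may therefore still differ. Of the members' loci, those of Mtor, Rptor, Mlst8, Akt1s1, Deptor, Tsc2 and Rps6kb1 overlap another annotated gene, and strand use in counting is not given in the sources used here. Coordinates and promoters are from RefSeq (GRCm38.p6).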

Additional observations from a re-analysis of the deposited data

Results flagged for a closer look

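A sample was taken as standing apart where its gap to the nearest sample exceeded Dixon's 95% critical value for its group, which chance gives for about 1 in 20 groups. Of 30 groups of values tested, 7 had such a sample. The share over all genes was not counted, so the number is not read as particular to the members. The unstressed Sst males were tested with both kinds of title together, so the rate given by chance need not hold there.

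Among unstressed Sst males, the averaged sample SST0-M with SST1-M was highest for Mtor (31.1 FPKM, the others 10.8 to 17.5) and lowest for Tsc2 (7.84 FPKM, the others 14.8 to 16.2), and SST04241LL was highest for Mlst8 (4.47 FPKM, the others 2.34 to 2.93). Among Sst females, SST-F was lowest for Mtor (10.9 FPKM, the others 14.4 to 17.0) and SST2-F highest for Rps6kb1 (22.3 FPKM, the others 18.0 to 19.6). Among Pvalb samples, the averaged PV0-M with PV2-M was highest for Rheb (27.0 FPKM, the others 11.6 to 16.6) and lowest for Tsc1 (4.97 FPKM, the others 7.44 to 8.77).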

How the results depend on the processing

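No member passed the threshold in the 4 comparisons as reported, so no call could be lost. The count of members that passed rose from 0 to 3 for sex against the dated males, beside 41.5% of all genes. For line it was 3 with the Sst females (25.1% of all genes). It was 2 with numbered titles (10.2%) or with the kind of title as a covariate (11%), and 1 with every library as its own sample (7.18%). For the kind of title it was 1 with a pseudocount of 5, with quantile normalization and with every library as its own sample (Akt1s1 in each), beside 4.06%, 7.77% and 12.5% of all genes. With exact permutation tests, unadjusted, it was 1 for sex (Rictor), 1 for CUS (Tsc2) and 4 for line (Mtor, Rptor, Rictor and Tsc2), beside 15.7%, 11.5% and 25.9% of all genes. Leaving out 1 sample at a time gave 0 calls throughout for sex and CUS, 0 to 1 for line (Rptor, without SS04031R) and 0 to 1 for the kind of title (Akt1s1, without SST0-M with SST1-M). Over all genes, 1468 of 14522 passed in that fit for line and 1962 of 14275 in that for the kind of title. Estimates of members changed sign as follows, all as log2 fold changes, and the cause was not tested. Of these, Akt1s1 and Rps6kb1 against the dated males passed the threshold.

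For sex, quantile normalization gave 0.050 for Mtor and 0.021 for Rps6kb1. All 6 male controls gave -0.98 for Akt1s1, 0.21 for Deptor, 0.18 for Rheb, -0.085 for Tsc1 and 0.22 for Rps6kb1. The dated males alone gave -2.18 for Akt1s1, 0.48 for Deptor, 0.54 for Rheb, -0.33 for Tsc1 and 0.56 for Rps6kb1. For CUS, Mtor was -0.022 with a common median and -0.11 with every library as its own sample, and Rptor was 0.056 with unstressed controls of both sexes. Against the dated controls, or with the kind of title as a covariate, the values were -0.015 for Mtor, -0.019 for Rictor, -0.31 for Akt1s1, 0.11 for Deptor, -0.023 for Tsc1 and 0.063 for Rps6kb1.

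For line, Rheb was 0.012 with a common median, 0.022 with quantile normalization, 0.13 with numbered titles or the kind of title as a covariate, 0.25 with numbered males and 0.076 with females. Deptor was -0.0080 with males, Rictor -0.0073 and Tsc1 -0.041 with numbered males, and Mlst8 0.024 with females. Without PV1-M, PV4-M and PV5-M, Mlst8 was 0.31 and Rps6kb1 -0.076, and with the microglia marker mean as a covariate Mtor was -0.098 and Tsc1 -0.12. For the kind of title, Mtor was -0.17 with every library as its own sample.

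With 1 sample left out at a time, the estimates that changed sign or call ranged as follows. For sex, Mtor ran from -0.38 to 0.34, Akt1s1 from -0.49 to 0.82, Deptor from -0.11 to 0.013 and Rheb from -0.41 to 0.10. For CUS, Mtor ran from -0.098 to 0.19. For line, Mlst8 ran from -0.29 to 0.015, Rheb from -0.098 to 0.13 and Rptor from -0.71 to -0.50. For the kind of title, Mtor ran from -0.21 to 0.52, Tsc2 from -0.031 to 0.45 and Akt1s1 from 1.69 to 3.0.

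The replicate numbers in the titles did not pair the samples (correlations of same-numbered deviations -0.040 to 0.069). With the number as a block, on the 3 shared numbers, 0 members passed for sex and for line, and the estimates that changed sign were 0.015 for Mtor, 0.034 for Deptor and 0.10 for Rheb in sex and 0.31 for Rheb and -0.096 for Tsc1 in line, the same as for those libraries without the block (an alternative chosen after seeing the data). Over all genes the block left 11 calls for sex (25 without it) and 10 for line (10). No paired analysis was possible for CUS and the kind of title because the dated titles carry no replicate number.

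Over all genes, the count of calls ran from 11 to 6032 for sex, 1 to 2309 for CUS, 2 to 3638 for line and 54 to 1962 for the kind of title. Without counts, what depth limits could not be computed.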
